A study of Mus musculus with 23 samples.

Results

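The comparison set an RNA library labelled T18 against one labelled N9, both made by TELP from day 7 adipocytes. TELP is a way of building sequencing libraries. The genes described are the 4690 of the 24029 in the deposited table (19.5%) that reached 10 RPKM in N9, with small noncoding RNAs kept apart. RPKM is the number of reads per kilobase of gene model, scaled to the read total. The choice used the level in N9 only, so that level is not a finding. Both libraries came from C3H10T1/2, a mouse mesenchymal stem cell line of the C3H strain that can be turned into fat cells. Cells received 8.3 nM BMP7 for 3 days before differentiation. DEX at 5 µM and IBMX at 0.5 mM followed up to day 2, together with 0.12 µg/ml insulin, 1 µM Rosi and 1 nM T3, and the last 3 agents were kept on until day 7. The labels give N9 and T18 the same cells, agents and day and do not spell out either name. Each side is 1 library, and the labels do not say whether the cultures were separate, so differences carry no replicate check and no test. A day 7 library made by a standard procedure and a day 0 N9 library are quoted beside them where they help.

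White and brown fat cells store triglyceride in droplets coated by perilipins and CIDE proteins, take up fatty acids through CD36 and lipoprotein lipase, and carry them on FABP4. PPARγ and C/EBPα switch on most of this program during differentiation. Besides messenger RNA, total RNA holds ribosomal RNA and many small noncoding RNAs, such as the RNA parts of the minor spliceosome, the RNase MRP and RNase P enzymes, snoRNAs that guide the modification of ribosomal RNA, and microRNAs.

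Small noncoding RNAs, led by Mir6236, Rnu12 and Rmrp, took most of the summed RPKM of T18, which is not a share of its reads. Ribosomal protein and replication-dependent histone mRNAs stood high in T18 relative to other genes. Fatty acid oxidation, glycolytic and thermogenic mRNAs stood low. Of the adipocyte genes more were lower than higher relative to the typical ratio, with Fabp4, Adipoq, Lpl and Pparg near it.

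Mir6236 had the most RPKM of all features in T18, and 3 further microRNA gene models were at the ends of the list of small RNAs. Their mature sequences in RefSeq are printed with the seed, bases 2 to 8, in capitals, to show what these gene models encode.
mmu-miR-6236: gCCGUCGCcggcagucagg
mmu-miR-5046: aGCUCCCGccacugugacccccuu
mmu-miR-8114: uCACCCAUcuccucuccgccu
mmu-miR-6986-5p: aGGGGAGCuagguagaaagcca
mmu-miR-6986-3p: gUUUUCACcuuccucccag
The sequences are those listed with GRCm38.p6, and 4 of 4 gene models matched. The 5 mature sequences have 5 distinct seeds, so none share a seed family. G and C make up 78.9% of miR-6236, 66.7% of miR-5046 and 61.9% of miR-8114. In the arms of miR-6986 the share was 54.5% and 52.6%. The models were picked for their values in T18 or N9, and a link of GC to direction was not tested. The deposited values are those of whole gene models and do not measure the mature microRNAs.

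Mir6236 was at 4123 RPKM in N9, 221011 in T18 and 897 in the standard library. It held 0.705% of all RPKM in N9 and 37.95% in T18. Rnu12, the U12 RNA of the minor spliceosome, was at 132 RPKM in N9 and 144629 in T18, or 0.0226% and 24.8% of the total. Together these models held most of the T18 RPKM. Rmrp, the RNA of RNase MRP, was at 76.6 RPKM in N9 and 37616 in T18. Rnu11, the U11 RNA that works beside U12, was at 434 and 7639 RPKM. Rpph1, the RNA of RNase P, was at 35.5 and 339 RPKM, and Vaultrc5, a vault RNA, at 1.28 and 139. All of these RNAs except Mir6236 were listed at 0 in the standard library. As deposited, T18 exceeded N9 by 53.6 times for Mir6236, 1096 times for Rnu12 and 491 times for Rmrp.

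SnoRNAs did not share one direction. Snord49a, a box C/D snoRNA, was the largest feature of N9 with 86430 RPKM and stood at 3316 RPKM in T18. Its neighbour Snord49b, on the same chromosome 11, was listed at 0 in N9 and at 4386 RPKM in T18. Both were listed at 0 in the standard library. Snord111 (6488 RPKM), Snord42b (5301 RPKM), Snora20 (1894 RPKM) and Mir5046 (2075 RPKM) also had values in T18 and were listed at 0 in N9. Going the other way, Snord65 (8742 RPKM), Mir8114 (7712 RPKM), Snord69 (5867 RPKM), Snord47 (4827 RPKM), Snord100 (4293 RPKM) and Mir6986 (3548 RPKM) had values in N9 and were listed at 0 in T18. Snord99 (22030 and 4302 RPKM), Snord66 (10645 and 2985), Snord83b (10424 and 6853), Snord55 (7525 and 1127) and Snord34 (6427 and 1040) had values in both, N9 first.

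Counted over the table, 36 of 123 snoRNA models were above 0 in N9, 38 in T18 and 21 in both. Of 1078 microRNA models, 46 were above 0 in N9, 22 in T18 and 14 in both. All 7 detected models of the other small RNA classes, which hold the spliceosomal, RNase and vault RNAs, were above 0 in both libraries. In RefSeq, 1200 of 1210 small RNA models span fewer than 202 bases, the length that had to be deducted from gene models to bring short genes to a common depth. An RPKM of a model that short rests on an effective length near 0, and an exact 0 can be a failed estimate. Whether these values measure the small RNAs themselves was not tested.

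**Figure D1:**
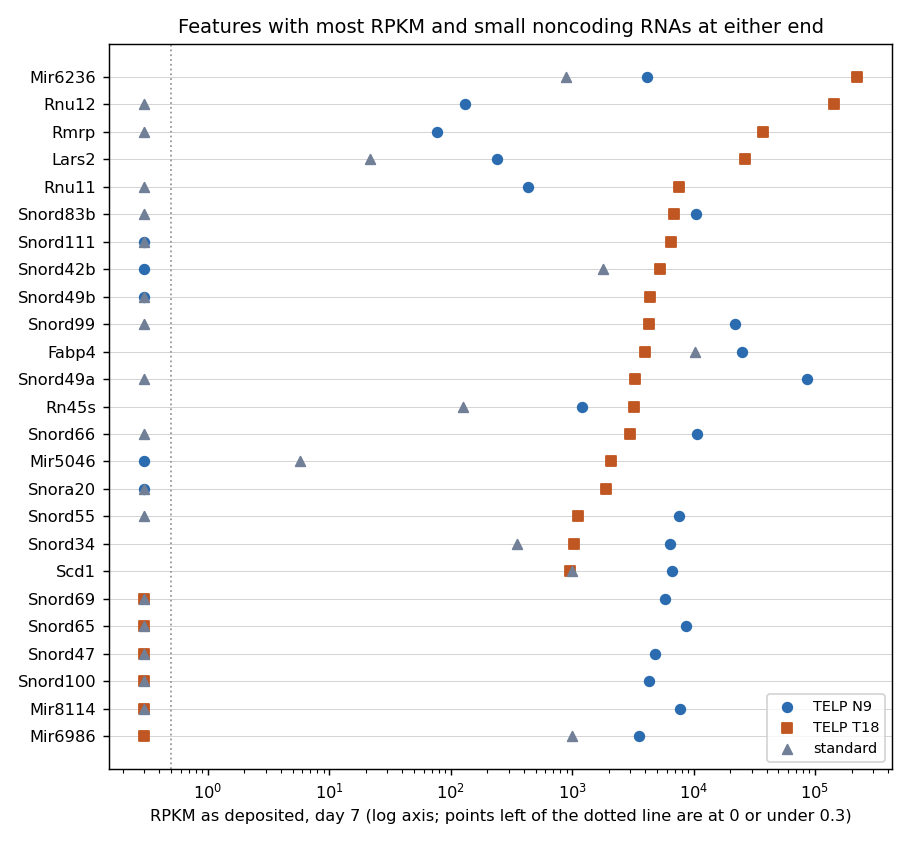
RPKM as deposited (log axis) in the day 7 N9 (circles), T18 (squares) and standard (triangles) libraries for the features with most RPKM and the small noncoding RNAs at either end of the difference, with Rn45s; points left of the dotted line are at or near 0. Mir6236, Rnu12 and Rmrp lie at 221011, 144629 and 37616 RPKM in T18, and several snoRNAs have a value in only 1 of N9 and T18.

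Small noncoding RNAs held 35.8% of RPKM in N9, 80.5% in T18 and 9.27% in the standard library, and the 4690 genes held 59.8%, 18.2% and 77.8%. RPKM divides reads by the length of the gene model, and most small RNA models are very short. These shares of summed RPKM are therefore not shares of reads. Genes at 1 RPKM or more numbered 10351 in N9, 6797 in T18 and 11112 in the standard library. As deposited, 4644 of the 4690 genes were lower in T18. The libraries were therefore scaled by the median ratio over 6688 genes above 1 RPKM in both, which was 0.224, or a shift of -2.16 on the log2 scale. The part of small noncoding RNAs in that shift was not tested. Every difference below is log2 of scaled RPKM plus 1, T18 minus N9, and so is relative to that shift. Depth was not stated and was estimated from the steps between low values at 5500000 fragments for N9 and 4760000 for T18. At 10 RPKM a 2 kb transcript then rested on about 110 reads in N9 (95% Poisson interval 90.4 to 133). The same gene at the median ratio rested on about 21 reads in T18 (13.0 to 32.1). Both intervals cover counting error only. A single read on 2 kb was worth 0.105 RPKM in T18, so values near or under that level rest on 1 read or less.

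The labelled cell type was checked on markers, in RPKM as deposited. These values are not scaled, and the median ratio of T18 to N9 was 0.224. Sums near equal in both libraries therefore stand higher in T18 relative to that ratio. All 10 adipocyte markers were at 10 RPKM or more in both day 7 libraries and above their day 0 N9 values. Summed, they were at 33.8 RPKM in day 0 N9, 33598 in N9 and 5847 in T18. The 6 preadipocyte markers summed to 369, 53.0 and 46.2 RPKM in the same order. Of these, Ly6a made up 29.6 RPKM in N9 and 38.6 in T18. In the standard day 7 library the preadipocyte markers summed to 232 RPKM, above both TELP day 7 sums, and the adipocyte markers to 15161 RPKM, between them. Osteoblast markers summed to 6.44 RPKM in N9 and 5.90 in T18, mostly Spp1, with Sp7 and Ibsp listed at 0 in both. Muscle markers summed to 7.39 and 1.41 RPKM, all from Acta1, with Myod1, Myog and Ckm at 0 in both. Chondrocyte markers summed to 0.640 and 0.139, endothelial markers to 0 and 0.0965, and macrophage and leukocyte markers to 4.70 and 0.513 RPKM. No marker of these 5 other types reached 10 RPKM in either library, so none is among the 4690 genes.

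With a call at a difference of at least 1, which is 2-fold on this scale, 345 genes (7.36%) were higher in T18 and 1011 (21.6%) were lower, 28.9% in all. The median of the 4690 genes was -0.31, and the quartiles were -0.90 and 0.25. The range from the 5th to the 95th percentile was -1.84 to 1.21. Keeping genes by their N9 level favours genes that are high in N9. With genes kept instead at 10 RPKM or more in the standard library, 487 were higher and 868 lower of 5330, and the share of calls that were higher moved from 25.4% to 35.9%. It was 44.9% with genes kept by the mean of both libraries. Among scalings it was 0.183% for RPKM as deposited, 8.53% for equal totals without small RNAs and 13.5% for a median ratio over genes above 10 RPKM. At the limit itself, 2500002B13Rik (10.0 and 0.347 RPKM), Rnf19a (10.0 and 2.22) and Nadk2 (10.0 and 2.54) were just inside, N9 first. Smpd2 (10.0 and 1.35 RPKM), Ppp4r1 (10.0 and 2.46) and Gusb (10.0 and 4.47) were just outside.

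**Figure D2:**
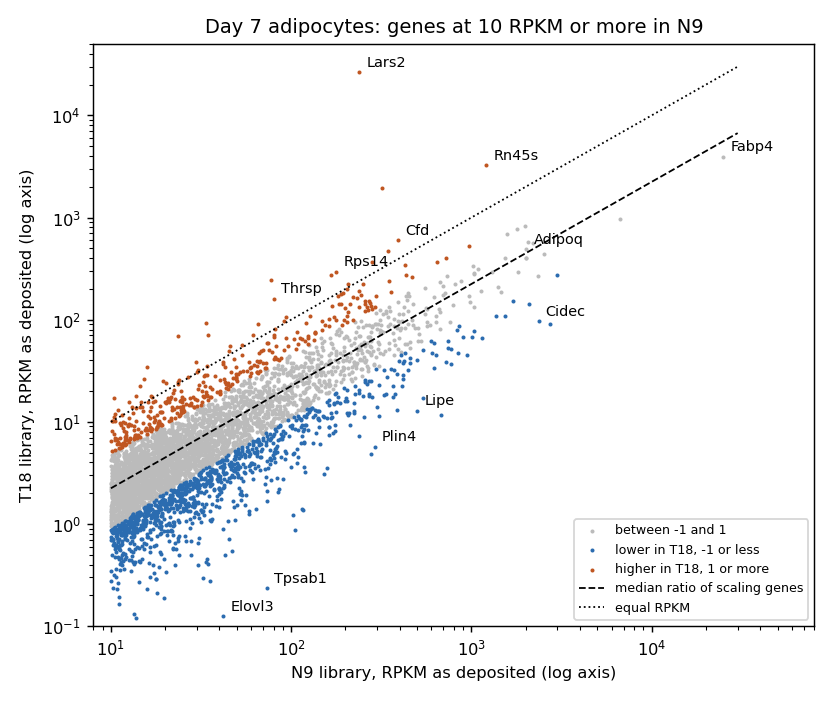
RPKM as deposited in N9 (horizontal) and T18 (vertical), both on log axes, for the 4690 genes; orange and blue points are those higher or lower in T18 by at least 1 log2 unit after scaling, and genes listed at 0 (6) or under 0.1 RPKM (7) in T18 are not drawn. Most genes lie along the dashed line of the median ratio, 0.224, and below the dotted line of equal RPKM, with Lars2 far above both.

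The highest differences were not led by adipocyte genes. Lars2, the mitochondrial leucyl-tRNA synthetase, was at 239 RPKM in N9, 26494 in T18 and 21.6 in the standard library, a difference of 8.94. That single gene model held 4.55% of all T18 RPKM and 0.0408% of N9 RPKM. Gm20594 followed at 319 and 1934 RPKM, a difference of 4.75. Whether the reads of Lars2 and Gm20594 came from these genes or from like sequences elsewhere was not tested. Rn45s, the 45S precursor of ribosomal RNA, was at 1210 RPKM in N9 and 3239 in T18, a difference of 3.58. Cyp2f2, a cytochrome P450, was at 77.5 and 245 RPKM, a difference of 3.79. Rgs2, a regulator of G protein signalling, was at 23.6 and 69.4 RPKM (3.60). The other names in the highest 12 were Gm12191 (3.55), the matrix proteoglycan Ogn (3.13), the lipogenic regulator Thrsp (3.12), the CCN family gene Nov (3.12), the ribosomal protein gene Rps14 (2.87), the calcium binding protein gene S100a4 (2.87) and haptoglobin, Hp (2.78). Ogn, Nov and S100a4 were at 162, 364 and 1418 RPKM in the standard library, above both TELP values of each.

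The lowest differences were taken among genes not listed at 0 in T18. Tpsab1, a mast cell tryptase, was at 73.2 RPKM in N9 and 0.236 in T18, a difference of -4.57. Elovl3, a fatty acid elongase of brown fat, was at 41.9 and 0.125 RPKM (-4.04). Pck1, the cytosolic phosphoenolpyruvate carboxykinase of glyceroneogenesis, was at 102 and 1.22 RPKM (-3.78). The T18 values of Tpsab1 and Elovl3 are worth few reads. Acaa1b, a peroxisomal thiolase, was at 676 and 11.6 RPKM (-3.65), and is a close paralogue of Acaa1a. Arxes1, an adipocyte gene of the X chromosome with a near-identical neighbour, Arxes2, was at 277 and 4.88 RPKM (-3.54). Tusc5, involved in glucose transporter trafficking, was at 116 and 1.38 RPKM (-3.84). For these 3 genes the T18 level is well above that of 1 read on 2 kb. The others of the 12 lowest among genes not listed at 0 were Rpl30 (-5.31), the matrix protein gene Prelp (-4.17), the scavenger receptor gene Olr1 (-3.92), the lysosomal gene Mfsd12 (-3.80), the AP-1 gene Fosl1 (-3.49) and Cpt1b (-3.43). In T18, Olr1 was at 0.0765 RPKM, below the worth of 1 read on 2 kb, and Fosl1 at 0.279 RPKM, also few reads.

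Among the 4690 genes 6 were listed at 0 in T18 and 7 more were under 0.1 RPKM there. The 5 with most RPKM in N9 were Fabp3 (37.1 RPKM), the heart-type fatty acid binding protein, then 2300009A05Rik (30.4), the hormone gene Fgf21 (23.5), the mitochondrial gene Chchd10 (21.2) and C78339 (15.7). In the standard library they stood at 12.4, 8.40, 4.74, 1.52 and 15.1 RPKM. Rpl30 was at 82.3 RPKM in N9 and 0.00192 in T18, far below the worth of 1 read. Rnaset2a (20.7 and 0.000308 RPKM) was alike in this. Its near-identical copy Rnaset2b (17.1 and 7.39 RPKM) was not near 0, and reads can be split between such copies in either way. Zeros were more frequent below the limit. Of genes between 5 and 10 RPKM in N9, 0.720% were listed at 0 in T18, of those from 1 to 2 RPKM 8.18%, and of those from 0.1 to 0.5 RPKM 44.3%.

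The adipocyte identity list kept 32 genes, with 2 higher (6.25%, beside 7.36% of all genes) and 15 lower (46.9%, beside 21.6%) in T18. The median was -0.63, beside -0.31 for all genes. None of the 32 was higher in the standard library than in N9 as deposited, though keeping genes by their N9 level favours N9 here. The labels give both libraries the same cells, agents and day. With 1 library of bulk RNA a side, a difference in how the libraries were made, fewer cells of a type and less RNA per cell cannot be told apart. The fatty acid carrier Fabp4 was at 24892 RPKM in N9, 3957 in T18 and 10253 in the standard library, a difference of -0.49. Adipoq, which encodes the hormone adiponectin, was at 2018, 491 and 1335 RPKM (0.12). Lpl, lipoprotein lipase, was at 2064, 572 and 1375 RPKM (0.31). Pparg, the master regulator, was at 99.2, 21.1 and 73.0 RPKM (-0.07). None of these 4 reached a difference of 1 in either direction. Its partner Cebpa was at 122, 11.9 and 35.5 RPKM (-1.17), and Cebpb, which acts earlier, at 113, 6.22 and 21.9 RPKM (-1.94). The fatty acid transporter Cd36 was at 745, 62.5 and 416 RPKM (-1.41).

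The lowest gene of the list was Pck1, described above. Several lipid droplet and lipolysis genes were also called lower. Plin1, the droplet coat protein that gates lipolysis, was at 411 RPKM in N9, 22.5 in T18 and 183 in the standard library, a difference of -2.01. Plin4, another perilipin, was at 291, 5.69 and 256 RPKM (-3.41). Cidec, which fuses droplets, was at 2357, 96.1 and 1283 RPKM (-2.45). Cidea, its relative in brown fat, stood at 48.6, 1.09 and 2.94 RPKM (-2.86). Lipe, the hormone-sensitive lipase, was at 499, 12.9 and 176 RPKM (-3.07), and Gpd1, which makes glycerol 3-phosphate, at 2717, 90.7 and 1361 RPKM (-2.74). Pnpla2, the first lipase of the cascade, was at 1032, 78.2 and 444 RPKM (-1.55). In all 7 genes the standard value lay between the N9 and T18 values as deposited. That order does not set them apart, since Fabp4, Adipoq, Lpl, Pparg, Cebpa and Cd36 had it too. As deposited, 31 of the 32 list genes were lower in T18 than in N9. Other lipolysis genes were not called, such as Mgll, the monoglyceride lipase (-0.50), and Adrb3, the β3-adrenergic receptor (-0.52). Of the list 2 genes were called higher, Cfd and Retn. Cfd, the complement protease adipsin, was at 390 RPKM in N9, 600 in T18 and 31.0 in the standard library (2.78). Retn, the hormone resistin, was at 721, 397 and 134 RPKM (1.30). Dgat2, which adds the last fatty acid to triglyceride, was at 225, 94.9 and 84.2 RPKM (0.91) and Adig, adipogenin, at 291, 90.1 and 86.2 RPKM (0.47). For Cfd and Retn the standard value was below both TELP values.

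**Figure D3:**
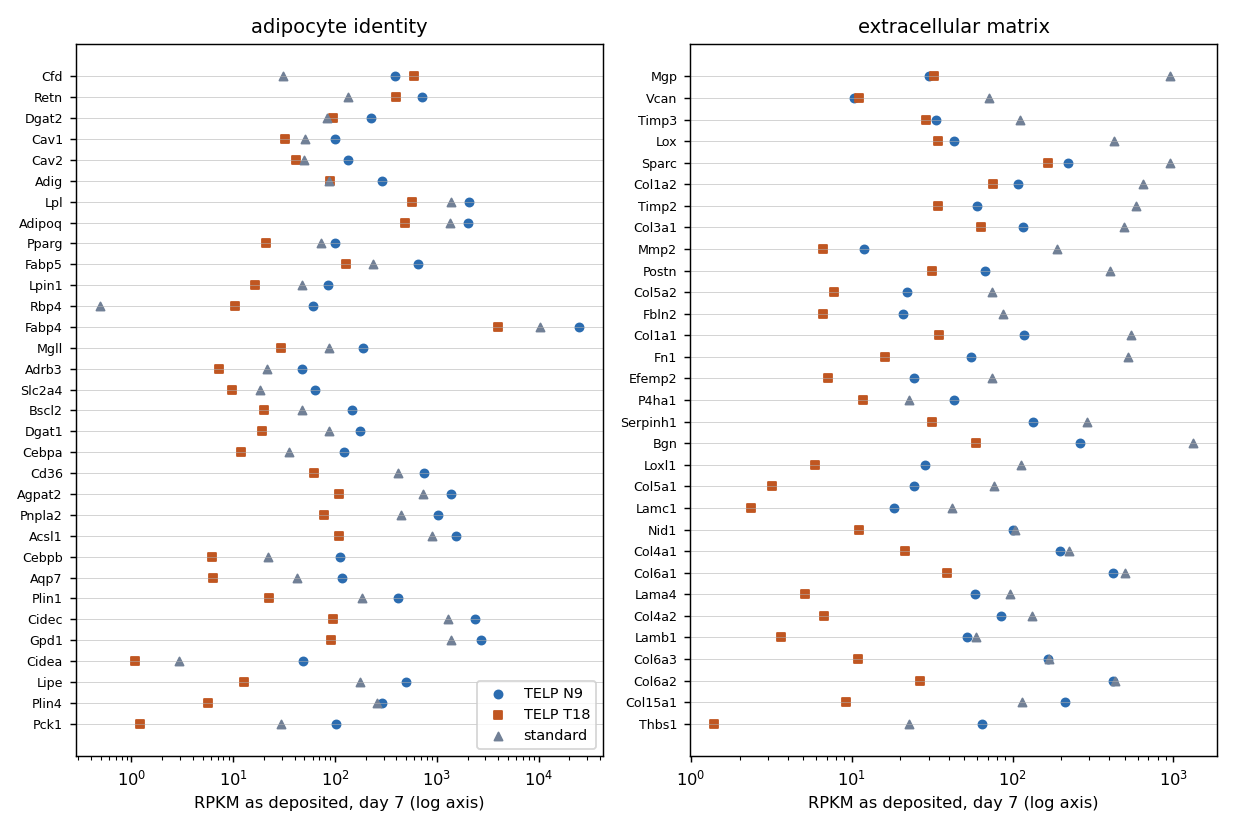
RPKM as deposited (log axis) of each kept gene of the adipocyte identity list (left) and of the extracellular matrix list (right) in the day 7 N9 (circles), T18 (squares) and standard (triangles) libraries, ordered by the scaled difference from lowest at the bottom. Cfd is the adipocyte gene with a higher RPKM in T18 than in N9, 600 against 390, and most matrix genes are highest in the standard library.

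De novo lipogenesis, which makes fatty acids from citrate, had 1 of 16 genes higher and 5 lower, or 6.25% and 31.2% beside 7.36% and 21.6% of all genes, with a median of -0.48. These shares are close to those of all genes. The central enzymes were close to the typical ratio. Fasn, fatty acid synthase, was at 407 RPKM in N9 and 82.3 in T18 (-0.15), and Acly, ATP citrate lyase, at 312 and 74.7 RPKM (0.10). Scd1, the stearoyl-CoA desaturase, was at 6672 and 967 RPKM (-0.62). Thrsp was at 80.1 RPKM in N9, 160 in T18 and 24.3 in the standard library (3.12). The elongase gene Elovl5 followed (47.8 and 21.2 RPKM, 0.96). The lowest were Agpat3, an acyltransferase (253 and 11.2 RPKM, -2.29), and Srebf2, a regulator of cholesterol synthesis (30.7 and 1.15 RPKM, -2.17).

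Fatty acid oxidation had 0 of 24 genes higher and 16 lower (66.7%, beside 21.6% of all genes), with a median of -1.36, and all 24 were lower in RPKM as deposited. Cpt1b, a carnitine palmitoyltransferase of the mitochondrial outer membrane, was at 47.1 RPKM in N9 and 0.546 in T18 (-3.43). Cpt2, its partner of the inner membrane, was at 225 and 15.3 RPKM (-1.68). Acads, the short-chain acyl-CoA dehydrogenase, was at 158 and 3.52 RPKM (-3.16), and Acadm, the medium-chain one, at 456 and 37.8 RPKM (-1.42). Hadha, a subunit of the trifunctional protein, was at 366 and 22.4 RPKM (-1.85). The other 8 genes were not called. They were Eci1 (0.61), Echs1 (0.59), Etfb (0.15), Eci2 (0.01), Decr1 (-0.44), Acadl (-0.66), Etfa (-0.82) and Ehhadh (-0.99).

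The TCA cycle and pyruvate entry list had 0 of 23 genes higher and 9 lower (39.1%, beside 21.6% of all genes). The median of that list was -0.79. The mitochondrial malate dehydrogenase Mdh2 was at 838 RPKM in N9 and 47.3 in T18 (-1.98), whereas the cytosolic form Mdh1 was at 346 and 105 RPKM (0.44). Idh3a, a subunit of isocitrate dehydrogenase, was at 269 and 17.7 RPKM (-1.73), and Sdhc, a membrane anchor of succinate dehydrogenase, at 280 and 85.0 RPKM (0.44). Glycolysis had 0 of 16 genes higher and 9 lower (56.25%, beside 21.6% of all genes), with a median of -1.10. Gpi1, glucose phosphate isomerase, was at 369 and 17.5 RPKM (-2.21), and Pfkl, a phosphofructokinase, at 211 and 12.3 RPKM (-1.90). Gapdh was at 832 and 79.8 RPKM (-1.22). Eno1, an enolase (230 and 35.6 RPKM, -0.52), and Pfkm, another phosphofructokinase (13.7 and 2.33 RPKM, -0.33), were at the high end of the glycolytic list. The thermogenic list kept 10 of 19 genes, with 1 higher and 8 lower (10% and 80%, beside 7.36% and 21.6%). The median difference was -2.04, and the median T18 level of the kept genes was only 1.36 RPKM. None of the 10 was higher in the standard library than in N9 as deposited, and keeping genes by their N9 level favours N9. With genes kept at 10 RPKM or more in the standard library the median of the thermogenic list was -2.23. Ucp1, at 0.882 RPKM in N9 and 0 in T18, was not kept. The thermogenic list contains Fabp3, Elovl3, Cpt1b and Cidea, all described above. Cpt1b also counts in the fatty acid oxidation list and Cidea in the adipocyte list. Its Cox8b, a subunit of cytochrome oxidase, was at 472 and 89.4 RPKM (-0.24). Cox7a1, another such subunit, was at 112 RPKM in N9, 65.8 in T18 and 9.10 in the standard library (1.38).

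Nuclear genes of oxidative phosphorylation had 9 of 71 higher and 5 lower (12.7% and 7.04%, beside 7.36% and 21.6% of all genes). Their median was 0.12 and turned to -0.12 under quantile normalization, -0.14 with a median ratio over genes above 10 RPKM, -0.11 relative to the shift in RPKM as deposited or with equal totals, and -0.03 with N9_ss in place of N9. Complex I, the NADH dehydrogenase, had 5 of 36 higher and 0 lower, with a median of 0.25. Complex III with cytochrome c had 0 of 10 higher and 2 lower (-0.37), complex IV 1 of 10 higher and 2 lower (-0.22), and ATP synthase 3 of 15 higher and 1 lower (-0.19). Within ATP synthase, Atp5j was at 251 RPKM in N9 and 222 in T18 (1.97) and Atp5j2 at 245 and 173 RPKM (1.65). Atp5d of the same enzyme was at 1144 and 66.6 RPKM (-1.93). Cox5a, a core-associated subunit of complex IV, was at 496 and 39.96 RPKM (-1.46). Members of 1 complex thus lay more than 3 log2 units apart.

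Ribosomal protein mRNAs were the largest group on the high side. Of 80 genes 32 were higher (7.36% of all genes were) in T18, 1 was lower, and 78 stood above the median of all genes. Their median was 0.86, although as deposited 76 of the 80 had a lower RPKM in T18. The small subunit had 16 of 31 higher and 0 lower (median 1.01) and the large subunit 15 of 47 higher and 1 lower (0.74). Rps14 was at 178 RPKM in N9, 294 in T18 and 186 in the standard library (2.87). Rpl39 was at 346, 465 and 356 RPKM (2.58). In both genes the T18 value was the highest of the 3 libraries. Many of these genes have near-identical processed copies, and reads can be split between them. Rps27 was at 155 RPKM in N9 and 88.4 in T18, and its copy Rps27rt at 0.391 and 85.8 RPKM.

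Translation factors, which act on the same ribosomes, had 2 of 36 higher and 3 lower, with a median of -0.30. The shares were 5.56% and 8.33%, beside 7.36% and 21.6% of all genes. Eif3e, a subunit of initiation factor 3, was at 42.3 RPKM in N9 and 26.4 in T18 (1.44), and Eif3m of the same factor at 15.4 and 8.39 RPKM (1.18). Eef2, which moves the ribosome along, was at 634 and 45.1 RPKM (-1.64). The initiation scaffold Eif4g1 stood at 97.3 and 7.27 RPKM (-1.52), and Eef1a1, which delivers tRNA, at 1814 and 294 RPKM (-0.46). The 4 snoRNA host genes, whose introns carry snoRNAs, had 2 higher, Snhg6 (16.996 and 17.5 RPKM, 2.08) and Snhg1 (18.03 and 11.6 RPKM, 1.42), and 0 lower. Snhg12 (14.5 and 3.65 RPKM, 0.15) and Snhg3 (76.4 and 18.9 RPKM, 0.14) were near the typical ratio. The median over the 4 was 0.79.

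Replication-dependent histone genes are short, have no introns and give mRNAs that end in a stem-loop in place of a poly(A) tail. In T18, 16 of 27 were higher (59.3%, beside 7.36% of all genes) and 1 was lower, with a median of 1.17, although as deposited 24 of the 27 had a lower RPKM. By core histone, 3 of 3 H2A genes, 7 of 12 H2B genes and 5 of 9 H4 genes were higher. Hist1h4i was at 23.8 RPKM in N9, 25.4 in T18 and 5.83 in the standard library (2.16). Hist1h2bn was at 10.5, 11.98 and 5.23 RPKM (2.14). Hist1h2ba, a testis form, was at 25.7, 4.29 and 9.45 RPKM (-0.38). The gene called lower, Hist2h3c2, was at 12.03 RPKM in N9 and 0.00246 in T18, less than 1 read. None of the 27 was higher in the standard library than in N9 as deposited. These 27 of 67 listed genes were kept by their N9 level, which favours N9 in that comparison. Histone genes of 1 class are near-identical to each other, so reads can be split among them. With genes kept at 50 RPKM or more in N9 the median was 0.56. Replacement histone genes, which are made outside replication, had 1 of 7 higher and 0 lower, with a median of 0.40. H3f3b was at 119 and 62.4 RPKM (1.21), H2afz at 21.0 and 8.24 RPKM (0.75), H2afx at 22.8 and 3.68 RPKM (-0.42) and H2afj at 54.9 and 6.60 RPKM (-0.85).

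**Figure D4:**
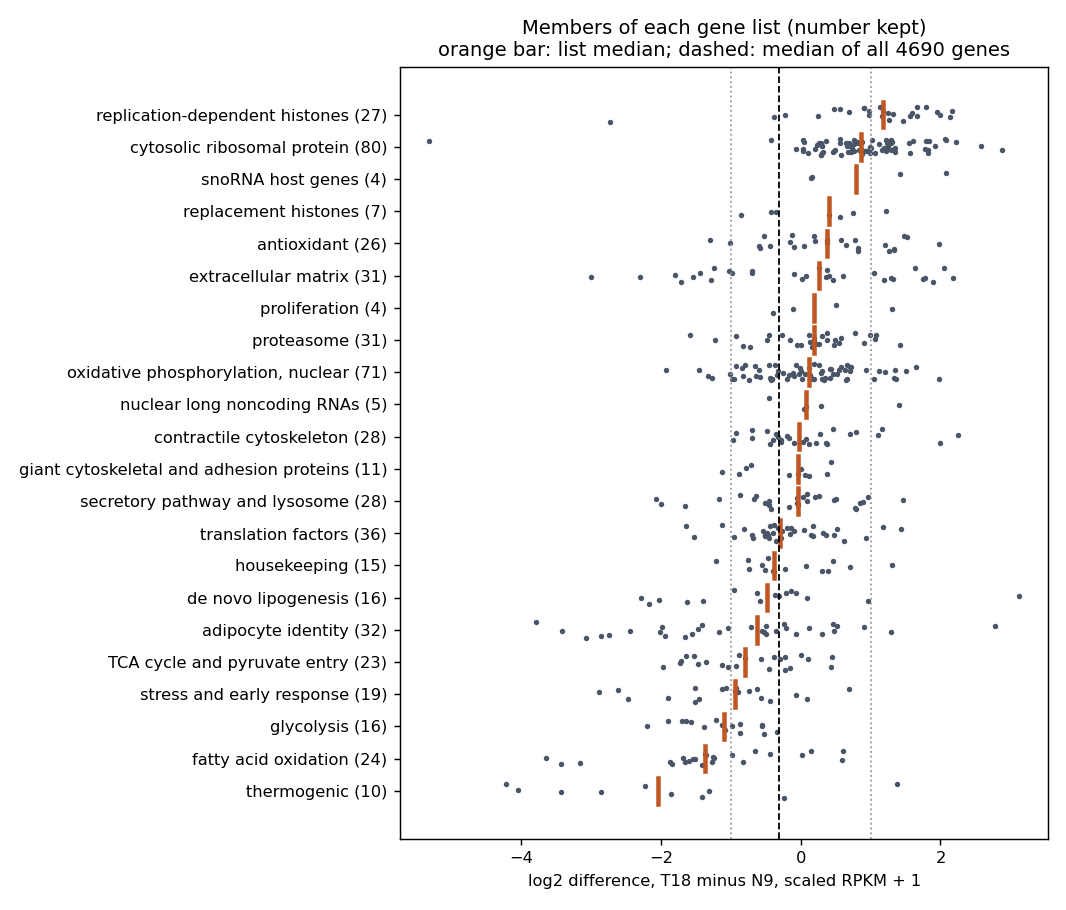
Scaled log2 difference, T18 minus N9, of each kept gene (points) by gene list, with the list median as an orange bar, the median of all 4690 genes as a dashed line and differences of -1 and 1 as dotted lines; the number of genes kept is in brackets. Histone and ribosomal protein lists lie highest, with medians of 1.17 and 0.86, and fatty acid oxidation and thermogenic lists lowest, with -1.36 and -2.04.

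Of 31 extracellular matrix genes 10 were higher and 9 lower (7.36% and 21.6% of all genes were), with a median of 0.26. That median turned to -0.99 with genes kept at 50 RPKM or more in N9. The genes named here are examples from both ends of the list. Mgp, matrix Gla protein, was at 30.3 RPKM in N9, 32.4 in T18 and 951 in the standard library (2.18). Vcan, versican, was at 10.3, 11.1 and 71.0 RPKM (2.06). Sparc, a collagen binding protein, was at 221, 167 and 960 RPKM (1.75). Lox, which crosslinks collagen, was at 42.9, 34.2 and 426 RPKM (1.78), and the collagen I chain gene Col1a2 at 108, 76.0 and 649 RPKM (1.64). Each of these 5 genes was highest in the standard library. Col15a1 was at 211, 9.23 and 115 RPKM (-2.30), Col6a2 at 419, 26.5 and 435 RPKM (-1.80) and Col4a1 at 197, 21.4 and 224 RPKM (-1.03). Thbs1, thrombospondin, was lowest at 64.1, 1.39 and 22.6 RPKM (-2.99). In the standard library 28 of the 31 genes were above their N9 value. The preadipocyte markers kept were Ly6a (29.6 and 38.6 RPKM, 2.46), Itgb1 (58.8 and 15.9 RPKM, 0.27) and Pdgfrb (12.02 and 2.74 RPKM, 0.02), so 1 of 3 was higher, with a median of 0.27. Their part in the matrix result was not tested.

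Contractile cytoskeleton genes had 4 of 28 higher (14.3%, beside 7.36% of all genes) and 0 lower, with a median of -0.03. Tmsb4x, which binds actin monomers, was at 208 RPKM in N9 and 222 in T18 (2.24). Cnn2, a calponin, was at 13.8 and 13.7 RPKM (1.99). The low end held the focal adhesion gene Zyx (26.2 and 2.76 RPKM, -0.97) and profilin, Pfn1 (409 and 47.9 RPKM, -0.93). Actb was at 692 and 214 RPKM (0.46). Giant cytoskeletal and adhesion proteins, with very long mRNAs, had 0 of 11 higher and 1 lower (9.09%, beside 21.6%), with a median of -0.04. Tln1, talin, was the lower one (23.5 and 2.16 RPKM, -1.12), followed by the dynein gene Dync1h1 (15.0 and 1.61 RPKM, -0.88), while the spectrin gene Sptbn1 (34.7 and 10.7 RPKM, 0.44) and fibronectin, Fn1 (54.8 and 16.0 RPKM, 0.37), stood highest. Proliferation genes had 1 of 4 higher and 0 lower, with a median of 0.20. These were Stmn1 (12.1 and 7.35 RPKM, 1.30), Pcna (28.9 and 9.33, 0.50), Cdk4 (108 and 22.4, -0.11) and Cdk2 (11.96 and 1.91, -0.40).

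Stress and early response genes had 0 of 19 higher and 9 lower (47.4%, beside 21.6% of all genes), with a median of -0.94. Hmox1, heme oxygenase, was at 120 RPKM in N9, 3.21 in T18 and 156 in the standard library (-2.89). Trib3, a target of the integrated stress response, was at 20.1, 0.341 and 3.40 RPKM (-2.61). Hspa5, the endoplasmic reticulum chaperone BiP, was at 384, 29.7 and 264 RPKM (-1.52). At the high end, Hspe1, the small mitochondrial chaperonin, was at 236, 85.6 and 91.2 RPKM (0.69) and Sqstm1, an autophagy receptor, at 243, 57.9 and 292 RPKM (0.09). Antioxidant genes had 7 of 26 higher and 2 lower (26.9% and 7.69%, beside 7.36% and 21.6%), with a median of 0.38. Gpx1, glutathione peroxidase, was at 42.1 and 38.6 RPKM (1.98) and the glutathione transferase gene Gsta4 at 58.5 and 38.4 RPKM (1.52). Txn2, mitochondrial thioredoxin, was at 163 and 14.6 RPKM (-1.29) and catalase, Cat, at 406 and 44.9 RPKM (-1.01).

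Proteasome genes had 3 of 31 higher and 2 lower, with a median of 0.19. The shares were 9.68% and 6.45%, beside 7.36% and 21.6% of all genes, so the share higher is close to that of all genes. The core particle genes Psma3 (24.8 and 15.7 RPKM, 1.42) and Psmb7 (134 and 63.9 RPKM, 1.08) were highest. The regulatory particle genes Psmd8 (118 and 8.49 RPKM, -1.59) and Psmd4 (74.5 and 6.86 RPKM, -1.22) were lowest. Secretory pathway and lysosome genes had 1 of 28 higher and 4 lower (3.57% and 14.3%), with a median of -0.04. Npc2, a lysosomal cholesterol carrier, was at 172 and 107 RPKM (1.46) and Lamp2, a lysosomal membrane protein, at 71.8 and 31.8 RPKM (0.97). Psap, prosaposin, was at 721 and 38.2 RPKM (-2.06) and Pdia3, a protein disulfide isomerase, at 87.9 and 4.56 RPKM (-2.00). Nuclear long noncoding RNAs had 1 of 5 higher and 0 lower, with a median of 0.08. Malat1, a transcript retained in the nucleus, was at 238 and 54.9 RPKM (0.04) and Neat1, the scaffold of paraspeckles, at 279 and 45.4 RPKM (-0.45). H19, an imprinted transcript, was at 12.1 and 8.003 RPKM (1.41), and 2900097C17Rik at 32.3 and 8.97 RPKM (0.30). Housekeeping genes had 1 of 15 higher and 1 lower (6.67% each), with a median of -0.38. B2m, the light chain of class I MHC, was at 468 and 260 RPKM (1.31) and the transferrin receptor gene Tfrc at 34.5 and 12.9 RPKM (0.71), while Gapdh (-1.22, above) was lowest. Of mitochondrially encoded genes, 0 had a row.

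Gene span and promoter GC, which the choice of genes did not use, were described across genes, which are not independent replicates. Gene span, from start to end with introns, was known for 99.8% of the genes. In the shortest of 5 bins of equal gene number, from 334 to 5841 bp, 15.4% of genes were higher in T18 and the median was -0.07. In the other bins 3.74% to 7.05% were higher and the medians lay between -0.37 and -0.33. Short genes include many of the ribosomal protein and histone genes. Without both lists the shortest bin, up to 6360 bp, still had 11.5% higher and a median of -0.20. The promoter window around the gene start had a GC value for 80.9% of the genes. From the lowest to the highest bin of GC the share higher in T18 was 11.2%, 8.44%, 6.07%, 5.94% and 3.43%, and the median was -0.14, -0.26, -0.37, -0.40 and -0.39. The level in N9 is what chose the genes, and its bins are a description only. From the lowest to the highest bin of N9 level the share higher went from 5.86% to 10.7% and the share lower from 19.6% to 24.7%, with medians between -0.35 and -0.24.

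**Figure D5:**
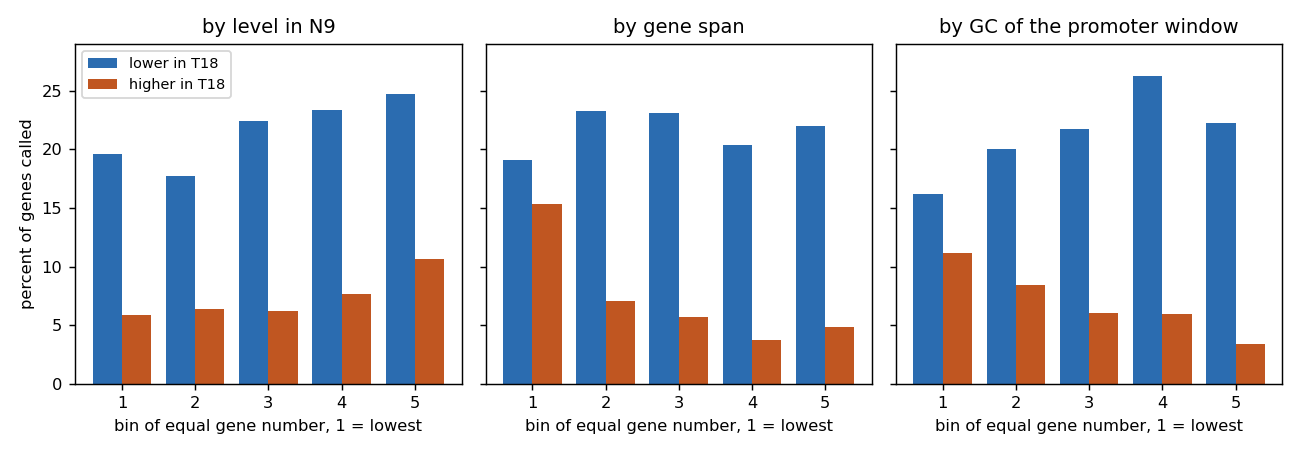
Percent of genes higher (orange) and lower (blue) in T18 by at least 1 log2 unit, in 5 bins of equal gene number by level in N9, by gene span and by GC of the promoter window, from lowest (1) to highest (5). The share of higher genes is 15.4% in the shortest bin by span and falls over the bins of promoter GC from 11.2% to 3.43%.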

How the data were processed

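The authors deposited RPKM values for 24029 genes in 6 RNA libraries, and the day 7 T18 and N9 columns were compared. Bowtie2, TopHat, Cufflinks and the mm9 build are named per the submitters' processing notes. Neither versions nor an annotation nor the use of strand is given in the sources used here. Total RNA was used, per the labels' protocols. RPKM are not counts and whole reads could not be recovered, so no count test was run, and with 1 library a side no test at all. All 6 columns matched a sample label, so 0 columns were unmapped.

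Both columns were scaled by the median of ratios over genes above 1 RPKM in both, and log2(T18 + 1) minus log2(N9 + 1) was taken for genes at 10 RPKM or more in N9. Such differences understate the change of low genes. A gene was called at an absolute difference of at least 1. The code for scaling and calls was checked on simulated columns with a known factor and equal numbers of genes raised and lowered. That check did not cover data with unequal numbers of higher and lower calls, as here. The genes and the 29 lists were chosen with earlier results of these data known. Named genes were 12 anchors, the 12 highest and 12 lowest differences, 5 genes listed at 0, the 10 features with most RPKM in each library, 2 genes at each end of each list, 6 small RNAs at each end and 3 genes at each side of the limit. Other genes named, among them Cidea, Cebpb, Lipe, Gpd1, Pnpla2, Dgat2, Adig, Fasn, Acly, Cpt2, Acads, Acadm, Hadha, Atp5 and matrix genes, were chosen after their values were seen. Some genes that the rule names are left unreported. Symbols were matched to RefSeq for GRCm38.p6 (23901, 99.5%), which gave spans, promoter GC and microRNA sequences. Its coordinates are not printed because the files use mm9. Transcript lengths and transcript sequences were not used here, so gene span and promoter GC replaced the planned transcript length and GC, and runs of A were not examined. Relative depth rested on 37 of 1847 low genes and absolute depth on 21 of 76 short genes. Python 3.11.15, numpy 2.4.6, pandas 2.3.3, scipy 1.17.1 and matplotlib 3.10.9 were used. The closing section gives the 13 alternatives. Chromatin libraries of the series were not analysed here.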

Additional observations from a re-analysis of the deposited data

How the results depend on the processing

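With 1 library a side the design gives no error, and the calls are by size only. Genes kept were called lower and higher in these numbers: 304 and 122 at 50 RPKM or more in N9, 4358 and 8 in RPKM as deposited, 4355 and 8 with equal totals, and 1672 and 156 with equal totals without small noncoding RNAs. Genes kept by a mean of at least 10 gave 438 lower, and a median ratio over genes above 10 RPKM gave 216 higher. The median of all genes kept was -0.16 with genes kept by the standard library, -0.083 by the mean, -2.23 as deposited, -2.22 with equal totals, -0.70 with equal totals without small RNAs, -0.18 under quantile normalization and -0.55 with the median ratio above 10 RPKM. For the first 3 of these scalings list and gene values were taken relative to that shift, which leaves them little room to move. Alternatives that only change which genes are kept leave each gene value unchanged. The counts of values that kept their side, given below, include all of these. The median of small noncoding RNAs at 10 RPKM or more in N9 was -3.35 over 70 models, 36 of them listed at 0 in T18. It was 0 with models kept by the standard library, 1.17 by the mean and 1.87 without models listed at 0, so it depends on the zeros. Of 292 list medians 283 kept their side of the threshold of 1, though the matrix median turned to -0.99 at 50 RPKM or more in N9. Medians near 0 changed sign under some settings for the contractile, giant protein, oxidative phosphorylation, proteasome, proliferation and nuclear long noncoding RNA lists. The others were the stress list (-1.11 with a pseudocount of 0.1, -1.14 with the median ratio above 10 RPKM, -1.08 with T18 alone scaled), snoRNA hosts (1.42 at 5 RPKM or more, 2.08 by the mean, 1.14 with N9_ss in place of N9), histones (0.56 at 50 RPKM or more, 0.94 with the median ratio above 10 RPKM) and the TCA list (-1.05 with that ratio). Of 1733 values of 142 named genes 1700 kept their side, and Snord83b reversed, to -0.21 under quantile normalization. The causes were not tested. N9_ss is not a replicate of N9. No paired analysis was possible because each group holds 1 RNA library. Gene span replaced transcript length, so no second length measure was run.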

Other observations

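Keeping genes at 10 RPKM or more in N9 leaves out genes that reach that level in T18 alone. Apart from small noncoding RNAs there were 22 of these, 19 of them protein coding, and they are named here after their values were seen. Mb, which encodes the oxygen carrier myoglobin, was at 5.41 RPKM in N9, 83.4 in T18 and 0.184 in the standard library. Wfdc21 was at 4.66, 47.5 and 4.51 RPKM, and the lipoprotein gene Apoc1 at 4.78, 18.4 and 3.40 RPKM. In these 3 genes T18 stood above both other libraries. The small matrix proteoglycan genes Dcn (4.32, 25.4 and 72.9 RPKM) and Aspn (8.01, 22.4 and 77.0 RPKM) were higher still in the standard library. Enpp2, which makes lysophosphatidic acid, was at 4.29, 15.1 and 15.5 RPKM. Some replication-dependent histone genes were among them, with Hist2h4 at 0, 13.4 and 1.17 RPKM and Hist1h1d at 8.99, 11.2 and 4.76 RPKM. The choice of these 22 genes fixed T18 above N9, so they add nothing to the histone result above. Tsix, which overlaps Xist on the other strand, was near 0 in N9 and the standard library and at 16.6 RPKM in T18. Strand handling is not stated, so reads of this pair cannot be told apart.

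Chromosomes differed in the median difference of their genes, which was -0.31 over all 4690 genes, with 21.6% of them lower in T18. The median was lowest on chromosome 5 (-0.55 over 287 genes, 29.97% of them lower in T18) and on chromosome 17 (-0.53 over 238 genes, 29.8% lower). Chromosomes 7 and 10 had 29.4% lower each. The median was highest on chromosome 13 (0.01 over 169 genes, 8.88% lower) and on the X chromosome (-0.04 over 149 genes). Part of the histone list lies on chromosome 13. No test was run on this pattern.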
